A study of Homo sapiens with 4 samples.

Results

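A set of 9 genes known as targets of the tumour suppressor p53, which also answer to other cell stresses, was followed in FaDu, an established squamous carcinoma line from the hypopharynx. They are MDM2, GADD45A, BTG2, SESN1, SESN2, TP53I3, FDXR, RRM2B and ZMAT3, taken by symbol from the deposited FPKM table, and each was found, 9 of 25548 gene symbols. FPKM are fragments scaled to the length of the transcript and to the size of the library, so levels can be set side by side between genes. The control group of FaDu cells received vehicle and is labelled DMSO only, although the vehicle for TSA was ethanol. The other received 5 µM 5-aza-2'-deoxycytidine (Aza), which traps DNA methyltransferases and lowers DNA methylation, on days 1, 2 and 3, and, on day 3, 100 nM trichostatin A (TSA), which blocks histone deacetylases. Aza and TSA were given to the same cells, so their parts cannot be told apart. Each group is 1 stranded mRNA library, so the differences below have no replicate check and carry no p-value. The series holds 4 libraries, and those of a second line were not used here. In bulk RNA, fewer cells with a transcript and less of it per cell cannot be told apart.

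p53 is a transcription factor that is stabilised when DNA is damaged or cells are stressed, and it switches on genes for cell-cycle arrest, repair, redox balance and cell death. One of these, MDM2, encodes the ubiquitin ligase that marks p53 for destruction, which closes a feedback loop. Several targets can also be raised without p53: GADD45A and SESN2, for example, are induced by ATF4, the transcription factor of the amino acid and unfolded protein stress responses. The table gives levels of RNA, not of protein.

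The 8 squamous epithelial markers checked, among them KRT5, KRT17 and CDH1, were present in both libraries, at a summed 2266 FPKM with DMSO and 2013 after treatment. KRT17 carried most of that sum, at 1164 and 1341 FPKM. With 1 FPKM added to each value, 3 of the 8 differed by 2-fold or more. KRT5 (687 and 226) and TP63 (73.7 and 23.2) were lower and KRT14 (49.8 and 147) higher. KRT6A (15.2 and 30.7) passed 2-fold only by its plain ratio, 2.02. Markers of other cells were mostly near 0. Those of fibroblasts summed to 0.794 and 3.65 FPKM, with 4 of 6 listed at 0 in the DMSO library, those of endothelium to 0.943 and 3.89, with 3 of 5 at 0, and those of leukocytes to 14.7 and 56.3, with 2 of 6 at 0. The leukocyte sum came almost wholly from CD68, a lysosomal protein gene also active outside leukocytes, at 13.0 and 51.3 FPKM, while the pan-leukocyte marker PTPRC was at 0.0513 and 0.0385. With 1 FPKM added, the other markers of these cells at least 2-fold higher were CD14 (1.62 and 4.59 FPKM), COL1A1 (0.749 and 3.08) and CDH5 (0.743 and 2.85). COL1A1 and CDH5, below 1 FPKM with DMSO, could not have been called lower. VWF (0.200 and 0.869) was not called, though its plain ratio was 4.34.

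The 9 genes did not move together. TP53I3 was higher in the treated library, GADD45A and RRM2B were lower, and the other 6 differed by less than 2-fold on the log2(FPKM + 1) scale, which adds 1 FPKM to each value and so shrinks the change of weakly expressed genes. Each of the 9 was measured, meaning at least 1 FPKM in either library, and each was in fact at 1 FPKM or more in both. Among 13558 measured genes, 16.1% were at least 2-fold higher and 5.21% at least 2-fold lower, so counts of 1 higher and 2 lower among 9 genes say little about the group. The median log2 change of the 9 was −0.25, with 3 above and 6 below 0, against 0.13 over all measured genes.

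**Figure D1:**
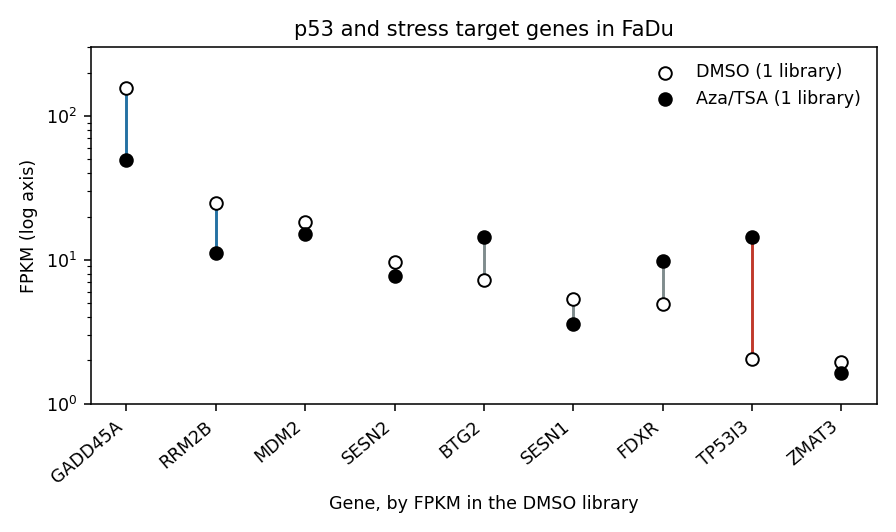
FPKM of the 9 genes on a log axis, ordered by their level in the DMSO library; open circles are the DMSO library, filled circles the Aza/TSA library, with 1 library each and no error bar. The red line marks the gene at least 2-fold higher (TP53I3), blue lines those at least 2-fold lower (GADD45A, RRM2B), and grey lines the rest.

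In the DMSO library the levels ran from 157 FPKM for GADD45A to 1.96 for ZMAT3, an 80.2-fold span. In the treated library the same genes stood at the ends, 49.6 and 1.63 FPKM, and the span was 30.4-fold. GADD45A made up 67.9% of the summed FPKM of the 9 genes with DMSO and 38.9% after treatment. Without it the other 8 summed to 74.3 and 77.9 FPKM. TP53I3 passed from the eighth place in the order to the fourth, beside BTG2. With 1 library a group it cannot be said which neighbours in these orders differ beyond their spread.

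Transcript GC content went with the change across all genes, so the change of each of the 9 genes is also given after that trend was subtracted. For other genes the corrected value is given only where stated. Of the cell type markers above, KRT14 (0.78), CD14 (0.45), COL1A1 (0.44) and CDH5 (0.69) were no longer 2-fold higher after it. KRT5, TP63 and CD68 kept their calls. The trend, a lowess curve fitted to the 7127 genes with 5 FPKM or more in each library, ran from a log2 change of −0.38 at 40% GC to 0.74 at 60%. After the subtraction 7.41% of measured genes were at least 2-fold higher and 4.26% lower, and the 9 genes again counted 1 higher (TP53I3) and 2 lower, now GADD45A and SESN2 in place of RRM2B. Their median log2 change became −0.022, against 0.017 over all measured genes. What makes the change go with GC content was not tested.

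**Figure D2:**
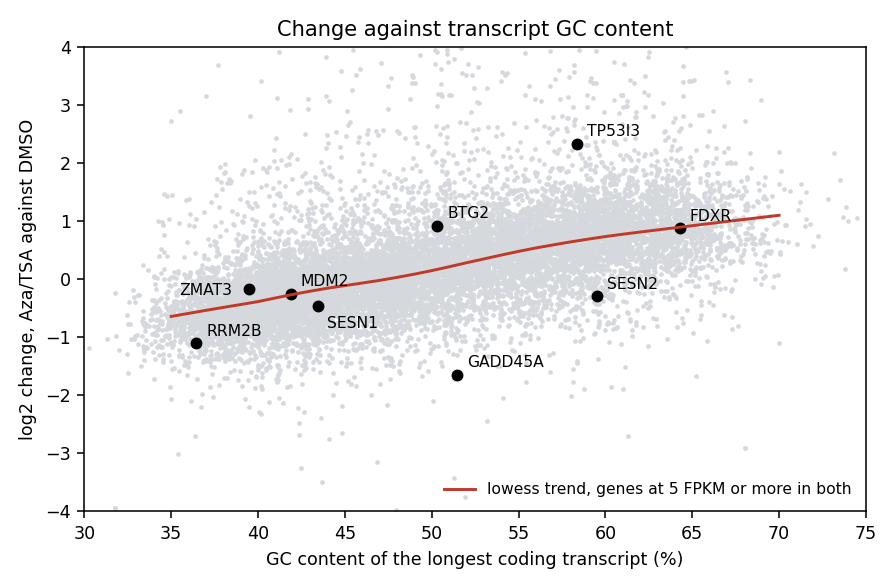
Log2 change on the log2(FPKM + 1) scale against the GC content of the longest coding transcript (longest of any type where none is coding) for measured genes (grey), with the lowess trend (red) and the 9 genes (black); points beyond the axes are not shown. FDXR and MDM2 lie on the trend, TP53I3 and BTG2 farthest above it, and GADD45A and SESN2 farthest below it. Nearer to it lie ZMAT3, above, and RRM2B and SESN1, below.

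MDM2, the ligase that degrades p53, was at 18.2 FPKM with DMSO and 15.1 after treatment, a log2 change of −0.25, or 0.013 after GC correction. These levels are close, and 30.8% of measured genes had a lower change. Its partner MDM4, which binds p53 and blocks its activity, was at 8.48 and 5.01 FPKM, a log2 change of −0.66. USP7, the deubiquitinase that stabilises both MDM2 and p53, was at 37.3 and 46.2 FPKM. The mRNA of these 3 regulators thus differed by less than 2-fold.

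MDM2 is transcribed from an upstream promoter and from one inside the first intron, the second being the one that p53 is known to drive. The table gives 1 value per gene, so the 2 cannot be separated here. The 250 bases before that internal start are shown because they hold the closest match to the p53 response element among the promoters of these genes (RefSeq, GRCh38.p14, chr12:68808767-68809016, + strand; capitals mark the closest 20 bases).

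MDM2, internal start: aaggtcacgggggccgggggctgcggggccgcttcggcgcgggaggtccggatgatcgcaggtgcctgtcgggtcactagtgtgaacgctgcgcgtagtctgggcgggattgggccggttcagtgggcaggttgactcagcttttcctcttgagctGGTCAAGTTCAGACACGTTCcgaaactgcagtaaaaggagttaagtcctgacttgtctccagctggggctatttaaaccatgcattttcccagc

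The p53 response element was searched by its consensus, 2 decamer half-sites with no spacer, which reads the same on both strands. The capitals differ from it at 2 of 20 positions, and 0.561% of 35114 RefSeq promoters of the same 250-base length hold a match with as few mismatches. The upstream start of MDM2 had no match closer than 5 mismatches, which 64.5% of promoters reach. Such a match is a description of letters, not a measured binding site. An element beyond the 250 bases, with a spacer or of another sequence would be missed by this search.

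GADD45A and BTG2 encode proteins that restrain the cell cycle, and they went in opposite directions. GADD45A, a small acidic protein that binds PCNA and cyclin-dependent kinase 1 and activates stress kinases, was at 157 FPKM with DMSO and 49.6 after treatment. That is a log2 change of −1.65, 3.13-fold lower on the scale used, and only 1.00% of measured genes had a lower one. The difference became wider after GC correction, −1.90. The call held under each of the 8 alternative settings, though the filter settings among them cannot alter a gene's ratio. It remained a well expressed gene, above 88.2% of measured genes in the treated library. Of its paralogues, GADD45B was at 24.7 and 21.1 FPKM, a log2 change of −0.22, or −0.83 after GC correction. GADD45G was under 0.5 FPKM in both libraries.

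BTG2, an antiproliferative protein that recruits the CCR4-NOT deadenylase, was at 7.19 FPKM with DMSO and 14.5 after treatment. The plain ratio of these values is 2.02, but with 1 FPKM added to each it is 1.90, a log2 change of 0.92, short of the 2-fold call. With 0.1 FPKM added it passed, at 1.00, a scale on which 21.7% of measured genes were at least 2-fold higher and 8.72% lower. After GC correction it was 0.75. Its relatives differed in direction: TOB2 was higher, at 21.4 and 49.7 FPKM (log2 change 1.18, or 0.75 and no longer called after GC correction), whereas TOB1 was at 56.9 and 33.7 (−0.74) and BTG1 at 15.3 and 9.73 (−0.60). BTG3 was nearly level at 9.72 and 9.60 FPKM, and BTG4 was listed at 0 and 0.225.

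**Figure D3:**
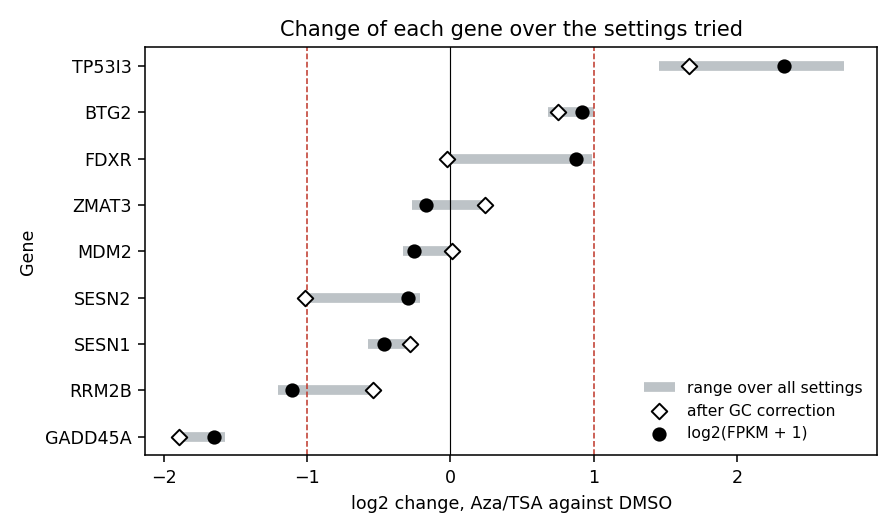
Log2 change of each gene, treated against DMSO: black circles on the log2(FPKM + 1) scale, open diamonds after GC correction, grey bars the range over the main value and the alternative settings, dashed lines at 2-fold. TP53I3 and GADD45A stay beyond 2-fold throughout, while RRM2B, SESN2 and BTG2 each cross the line under some setting.

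The sestrins restrain the growth kinase complex mTORC1, SESN2 acting as a leucine sensor. SESN1, like SESN2 a known p53 target, was at 5.31 FPKM with DMSO and 3.58 after treatment, a log2 change of −0.46. SESN2 was at 9.65 and 7.68 FPKM (−0.30), and SESN3, known as a FOXO target, at 2.91 and 1.94 (−0.41). All 3 were lower in the treated library and none by 2-fold. GC correction spread them apart. SESN2, whose transcript is 59.5% GC, became −1.01, just past the 2-fold line, SESN1 (43.4% GC) became −0.28 and SESN3 (37.1% GC) 0.12.

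SESN1 has 3 starts in the RefSeq promoter table, and the third holds an exact p53 half-site, which 5.57% of promoters contain. The closest 20 bases there, shown as the nearest match among the SESN1 and SESN2 starts searched, have 3 mismatches to the full element, as few as in 4.36% of promoters (GRCh38.p14, chr6:109009018-109009037, − strand).

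SESN1, start 3: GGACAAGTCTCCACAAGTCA

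The single SESN2 start had no match closer than 5 mismatches.

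TP53I3 and FDXR encode oxidoreductases. TP53I3, a quinone oxidoreductase of the zeta-crystallin family tied to reactive oxygen species in p53-induced death, was at 2.06 FPKM with DMSO and 14.4 after treatment. The plain ratio was 6.98, and the log2 change was 2.33, or 5.03-fold on the scale used, above 97.2% of measured genes. After GC correction it was 1.67, and over the settings tried it ran from 1.46 to 2.75, so the call held in each. Of the other quinone oxidoreductases listed, VAT1 was also higher, at 12.3 and 44.9 FPKM (log2 change 1.79, or 1.10 after GC correction). Zeta-crystallin itself (CRYZ) was at 35.7 and 20.1 FPKM (−0.80), CRYZL1 at 19.3 and 9.44 (−0.96), NQO1 at 204 and 145 (−0.48) and NQO2 at 12.3 and 16.2 (0.37). On the log2(FPKM + 1) scale none of these 4 reached 2-fold, though the plain ratio of CRYZL1 did (2.05-fold lower), and 3 of them were on the lower side.

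FDXR, the mitochondrial flavoprotein that passes electrons from NADPH to ferredoxin, was at 4.92 FPKM with DMSO and 9.89 after treatment. Its plain ratio was 2.01 and its log2 change 0.88, not called. The GC content of its transcript, 64.3%, was the highest of the 9, and after correction the change was −0.022. Its electron acceptors were FDX1, at 4.98 and 5.43 FPKM (0.11), and FDX2, listed under an older symbol, at 7.48 and 10.3 (0.41). After GC correction FDX1 was at 0.36 and FDX2 at −0.38.

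The promoters of TP53I3 and BTG2 are shown because these 2 genes lay above the GC trend and because Aza lowers methylation at CpG sites, of which they hold very different numbers (RefSeq, GRCh38.p14, the 250 bases before the start, capitals mark CpG; TP53I3 chr2:24084835-24085084, − strand; BTG2 chr1:203305269-203305518, + strand).

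TP53I3: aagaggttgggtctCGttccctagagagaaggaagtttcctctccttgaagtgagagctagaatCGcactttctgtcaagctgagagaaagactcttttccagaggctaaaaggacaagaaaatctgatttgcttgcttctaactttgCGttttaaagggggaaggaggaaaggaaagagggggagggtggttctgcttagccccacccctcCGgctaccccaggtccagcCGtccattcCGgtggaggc

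BTG2: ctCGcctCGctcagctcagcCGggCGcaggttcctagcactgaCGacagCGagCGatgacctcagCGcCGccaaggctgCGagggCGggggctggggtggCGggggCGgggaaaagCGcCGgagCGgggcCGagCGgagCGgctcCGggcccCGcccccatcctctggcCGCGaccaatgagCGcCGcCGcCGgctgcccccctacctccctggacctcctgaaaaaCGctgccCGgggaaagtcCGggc

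The TP53I3 window holds 6 CpG and is 51.2% GC, whereas that of BTG2 holds 30 CpG at 74.8% GC. The median over 35114 promoters is 11 CpG. ZMAT3, which lay nearer above the trend, holds 31 CpG at its first start and 2 at its second. Methylation was not measured in these files, and its part in these changes was not tested. Of the 9 genes, 7 matched the promoter table, with 14 starts, and GADD45A and RRM2B did not. The TP53I3 and BTG2 windows had no match to the p53 element closer than 5 mismatches, which does not mean that these genes lack one. FDXR had one with 3 mismatches and an exact half-site, 21 bases before its first start (GRCh38.p14, chr17:74872996-74873015, − strand), shown because that start is the second of the 14 with a half-site.

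FDXR, first start: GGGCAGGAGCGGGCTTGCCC

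RRM2B encodes the small subunit of ribonucleotide reductase that p53 induces to supply deoxynucleotides outside S phase. It was at 25.0 FPKM with DMSO and 11.1 after treatment, a log2 change of −1.10, 2.15-fold lower on the scale used. Its transcript had the lowest GC content of the 9, 36.4%, and after GC correction the change was −0.54 and no longer called. The S-phase subunit RRM2 was at 23.9 and 35.6 FPKM (log2 change 0.55) and the large subunit RRM1 at 39.5 and 38.0 (−0.055). By uncorrected FPKM, RRM2 thus stood at 0.959 times the level of RRM2B with DMSO and at 3.21 times after treatment. After GC correction the log2 change of RRM2 was 0.63 and that of RRM1 0.15.

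ZMAT3, a zinc-finger protein that binds AU-rich RNA and takes part in splicing, had the lowest level of the 9, at 1.96 and 1.63 FPKM, a log2 change of −0.17 that became 0.24 after GC correction. In its family ZMAT1 was lower, at 3.47 and 0.931 FPKM (−1.21, or −0.68 after GC correction), ZMAT2 was at 70.5 and 64.4 (−0.13), ZMAT5 at 5.26 and 9.03 (0.68), and ZMAT4 was listed at 0 in both libraries.

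**Figure D4:**
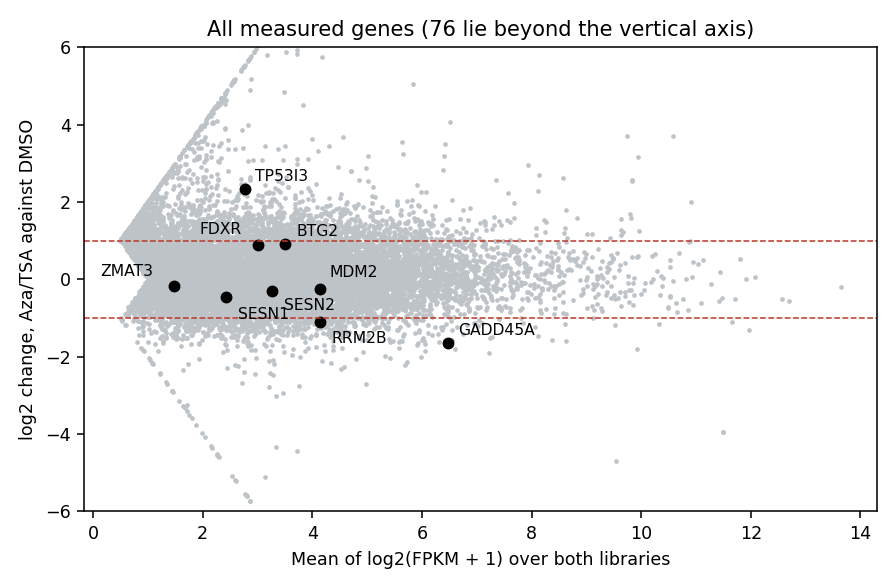
Log2 change against the mean of log2(FPKM + 1) over both libraries for measured genes (grey) and the 9 genes (black), with dashed lines at 2-fold; 76 measured genes lie beyond the vertical axis. TP53I3 stands above the upper line and GADD45A and RRM2B below the lower one, and the other 6 lie between.

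Other p53 target genes also went in both directions, as did measured genes in general. Of 40 other p53 target genes, 36 were measured, 10 were at least 2-fold higher (16.1% of all measured genes were) and 4 at least 2-fold lower (5.21%). Their median log2 change was 0.18, against 0.13 for all measured genes. After GC correction 3 were higher and 2 lower, near the 7.41% and 4.26% of all measured genes, so these counts say little about the list. The median was then −0.048 against 0.017. The 3 were among the 10 above, while of the 2 lower ones 1 was newly called.

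Among the higher ones, CDKN1A, the p21 inhibitor of cyclin-dependent kinases, was at 16.2 FPKM with DMSO and 66.1 after treatment (log2 change 1.96). AEN, an apoptosis-enhancing nuclease, was at 6.79 and 27.1 FPKM (1.85), and TIGAR, a phosphatase that lowers glycolytic flux, at 3.75 and 8.88 (1.06). These were the 3 that stayed at least 2-fold higher after GC correction, at 1.32, 1.31 and 1.20. The other 7 were the kinase PLK3 at 2.82 and 10.3 FPKM, SERTAD1 at 11.1 and 28.8, the AKT inhibitor PHLDA3 at 5.68 and 14.3, the pore-forming death effector BAX at 27.7 and 60.6, TP53I11 at 2.98 and 7.29, TP53I13 at 6.06 and 13.4, and PIDD1, the core of the PIDDosome, at 1.97 and 4.94.

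Among the lower ones, the small GTPase RAP2B was at 25.2 and 8.23 FPKM (log2 change −1.51), and −1.19 after GC correction. PMAIP1, the BH3-only protein NOXA, was at 36.7 and 14.0 FPKM (−1.33), cyclin G1 (CCNG1) at 53.1 and 21.3 (−1.28), and the phosphatase PTP4A1 at 89.4 and 43.0 (−1.04). None of these 3 was 2-fold lower after GC correction. The second gene lower after it was BBC3, the BH3-only protein PUMA, at 1.52 and 1.61 FPKM, a log2 change of 0.050 that became −1.04. BBC3 and GDF15, a secreted stress cytokine at 35.7 and 34.2 FPKM, had the smallest differences on the uncorrected scale.

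**Figure D5:**
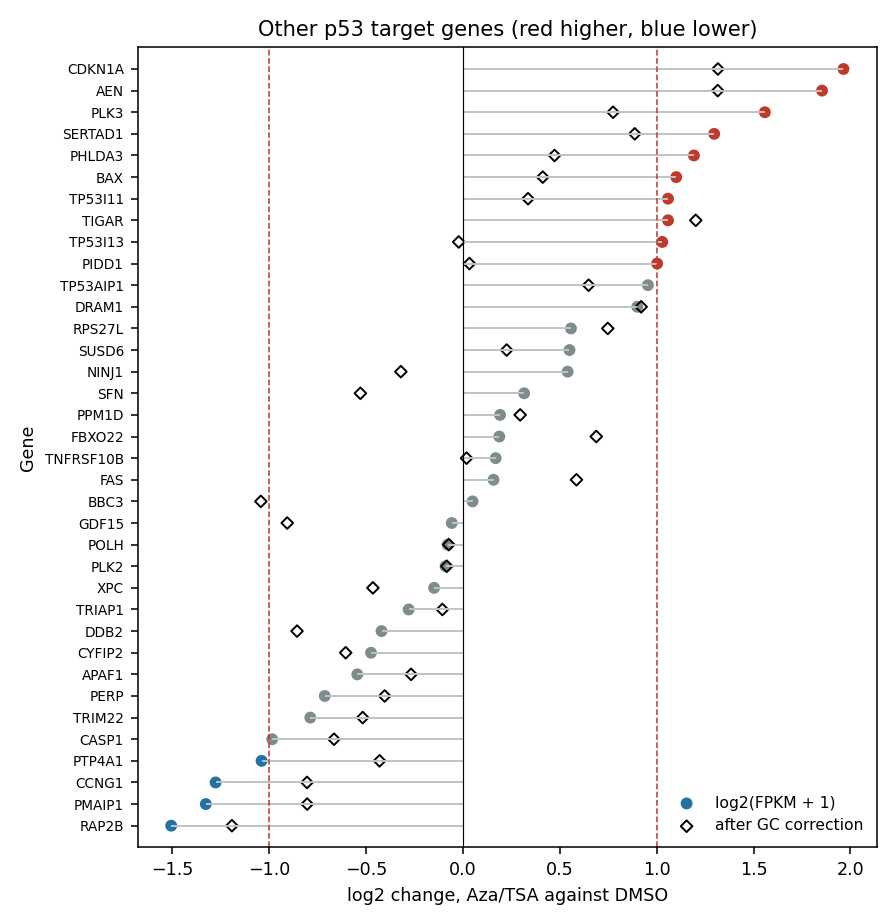
Log2 change of the 36 measured p53 target genes outside the 9, by size: filled circles on the log2(FPKM + 1) scale (red at least 2-fold higher, blue at least 2-fold lower, grey neither), open diamonds after GC correction, dashed lines at 2-fold. Red circles stand for 10 genes and blue for 4, and 3 of the red ones keep a diamond beyond the line.

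Among the relatives and regulators of p53, 17 of 18 genes were measured, none was at least 2-fold higher and 1 was lower, beside 16.1% and 5.21% of all measured genes. The lower gene was TP63, the p53 relative that maintains squamous identity, at 73.7 and 23.2 FPKM (log2 change −1.63, or −1.39 after GC correction). TP63 protein is known to bind many p53 target sites, and its part in the values above was not tested. Another relative, TP73, stayed under 0.5 FPKM in both libraries. On the uncorrected scale, the checkpoint kinase CHEK2, at 12.5 and 11.8 FPKM, had the smallest difference in the list. Next was the acetyltransferase KAT5, at 44.9 and 42.2 FPKM. After GC correction CHEK2 was at −0.0042 and KAT5 at −0.76.

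GADD45A and SESN2 also belong to a list of 11 ATF4 stress genes, of which none was at least 2-fold higher and 4 were lower, beside 16.1% and 5.21% of all measured genes. Besides GADD45A these were asparagine synthetase (ASNS) at 181 and 50.9 FPKM, the mTORC1 inhibitor DDIT4 at 87.7 and 25.1, and the pseudokinase TRIB3 at 35.7 and 16.0. ATF4 itself was at 549 and 412 FPKM, a log2 change of −0.41, and DDIT3, which encodes the death-promoting factor CHOP, went the other way at 24.2 and 43.3 FPKM (0.81). On the uncorrected scale the smallest differences were those of ATF3 (107 and 96.2 FPKM) and CEBPB (31.6 and 36.9). Corrected for GC, ATF3 was at −0.35, CEBPB at −0.75, ATF4 at −0.99 and DDIT3 at 0.68. After GC correction 6 of the 11 were lower, SESN2 and CHAC1 being added, beside 4.26% of all measured genes. The median of the list was −0.41 before correction and −1.01 after it, against 0.13 and 0.017 over all measured genes.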

How the data were processed

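Stranded mRNA libraries of FaDu were made by the authors, 1 for each group, and their deposited table gives FPKM per gene symbol and library, per the file headers. TopHat 1.3.2, Cufflinks 2.0.2 and hg19 are named in the submitters' processing notes; the annotation, any filter and how libraries were scaled are not stated there. FPKM do not give read numbers, so depth is unknown.

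The 45 repeated rows were summed by symbol. The change was log2((treated FPKM + 1)/(DMSO FPKM + 1)), measured meant 1 FPKM or more in either library, and calls were made at 2-fold. GC content came from GENCODE release 29 transcripts (the longest coding one per symbol), and a lowess trend (fraction 0.3, statsmodels 0.14.6) was subtracted; 12525 measured genes had a value. The calls and the correction were checked on simulated data with random GC content, a straight-line trend and large true changes. That check says little about calls near 2-fold or about the trend in these data. Promoters are from RefSeq on GRCh38.p14, another build than the files', so they were matched by symbol.

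The members and gene lists were chosen with earlier results of these data known. Named are the 9 genes, all their listed relatives, from the p53 target, regulator and ATF4 lists each called gene and the 2 with the smallest change, and cell type markers as a check; CHAC1, DDIT3, ATF4, MDM4, USP7 and TP73 fall outside that rule and were named for their roles after their values were seen. Alternatives were pseudocounts of 0.1 and 5, no filter, a filter at 5 FPKM, TPM scaling, a median ratio of 1, the highest of repeated rows, and GC correction. An item of the lists is not reported here. Of 121 list genes, 121 matched, 4 by an older symbol.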

Additional observations from a re-analysis of the deposited data

How the results depend on the processing

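TP53I3 (higher) and GADD45A (lower) kept their calls under each of the 8 alternatives. Not all of these are checks on a single gene. Dropping or raising the filter cannot alter a gene's ratio, and taking the highest of repeated rows left both values the same. RRM2B was no longer 2-fold lower with a pseudocount of 5 (−0.90) or GC correction (−0.54), BTG2 reached 2-fold with a pseudocount of 0.1 (1.00), and SESN2 with GC correction (−1.01). GC correction turned the sign of MDM2 (0.013), ZMAT3 (0.24) and FDXR (−0.022), none of them called; ZMAT3 gave no value with a filter at 5 FPKM.

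Of the 9 genes, 2 were higher with a pseudocount of 0.1 and 1 lower with a pseudocount of 5. Other p53 targets counted 4 higher with a pseudocount of 5, and 3 higher and 2 lower after GC correction. All measured genes counted 2178 higher and 706 lower, against 1182 lower with a pseudocount of 0.1, 893 higher and 253 lower with 5, 1152 lower with TPM scaling, and 928 higher and 534 lower after GC correction.

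The median log2 change of the 9 genes was −0.27 (pseudocount 0.1), −0.21 (pseudocount 5), −0.27 (5 FPKM filter), −0.33 (TPM), −0.30 (median ratio of 1) and −0.022 (GC correction). That of the other p53 targets was 0.19 and 0.12 with the pseudocounts of 0.1 and 5, 0.16 with no filter, 0.12 with TPM, 0.13 with a median ratio of 1 and −0.048 with GC correction. For the relatives and regulators of p53 it was 0.19, 0.098, 0.17, 0.11, 0.13 and −0.0042 in the same order, 0.16 with the 5 FPKM filter and 0.14 with the highest of repeated rows. Over all measured genes it was 0.15, 0.082, 0, 0.10, 0.085 and 0.017 in that order, and 0.11 with the 5 FPKM filter, so no filter and GC correction each moved it by over 0.1. The cause of these shifts was not tested, beyond the arithmetic of each setting. No paired analysis was possible because each group has 1 library. FPKM without read numbers give no interval for genes at low levels such as ZMAT3.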

Other observations

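The CpG count of promoters was set beside the change for all measured genes with a single start in the RefSeq table, a look chosen after the values of TP53I3 and BTG2 were seen. Of 498 genes with as few CpG as the TP53I3 promoter or fewer, 31.9% were higher by 2-fold or more after treatment and 6.63% lower. Of 1347 genes with at least as many as the BTG2 promoter, 13.3% were higher and 3.49% lower. The 4453 genes between them had 13.4% higher and 4.11% lower. With these cut points and before GC correction, the share of higher genes stood apart in the group with the fewest CpG. It was alike in the other groups. The median log2 changes were 0.45, 0.070 and 0.21 from the fewest CpG to the most. After GC correction the higher shares were 23.3%, 5.30% and 2.53% in that order. The genes with few CpG had a median level of 2.16 FPKM with DMSO, against 9.17 for those with many, and 9.04% of them were listed at 0 there, against 0.371%. By the rule for measured genes, one at 0 with DMSO can be called nothing but higher. Any other gene below the minimum with DMSO is counted only if the treated library reaches that minimum. Before GC correction such a gene cannot be called lower. The part of this rule in the shares was not tested. The split therefore cannot tell a link with CpG count from one with a low level in the DMSO library.

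TP53AIP1, a mitochondrial p53 target that acts in apoptosis, was at 0.0571 FPKM with DMSO and 1.05 after treatment, a log2 change of 0.95 that missed 2-fold on the log2(FPKM + 1) scale. Of the death receptor targets, FAS was at 6.25 and 7.09 FPKM and TNFRSF10B at 18.9 and 21.4, while TNFRSF10A and EDA2R were listed at 0 in both libraries. These genes were named after their values were seen.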
